A study of Mus musculus with 6 samples.

Results

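The genes described here are 10 transcripts of the negative feedback of the extracellular signal-regulated kinase (ERK) pathway, namely Dusp1, Dusp4, Dusp5, Dusp6, Spry1, Spry2, Spry4, Spred1, Etv4 and Etv5. They were taken by symbol from the 22105 gene rows of a table of read counts, and all 10 were among the 12288 genes with enough counts to be tested. These genes and the lists set beside them were chosen with earlier results of these data known. Their counts and medians are therefore not independent of the data. The libraries came from 4T1, a single mouse mammary gland carcinoma cell line, grown in medium with serum. Cells received the vehicle DMSO or 10 µM P3FI-90, an inhibitor of the histone demethylase KDM3B, for 24 h, with 3 libraries per group. All results refer to this line, dose and time. The labels do not say whether the libraries of a group came from separate cultures, so the p-values measure the spread between these libraries only, which may be technical. Transcripts were measured, and ERK activity itself was not.

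In the ERK pathway, growth factor receptors activate RAS, which switches on the kinases RAF, MEK and ERK in turn. Active ERK induces genes whose products restrain the same chain. Among these products are MAP kinase phosphatases of the DUSP family, which remove the activating phosphates of ERK and its relatives JNK and p38, and Sprouty and SPRED proteins, which act between the receptor and RAF. The ETS transcription factors Etv4 and Etv5 belong to the PEA3 group and are induced by receptor and ERK signalling, so that their transcripts, with those of Dusp6 and the Sprouty genes, are often read as an output of the pathway.

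P3FI-90 did not move the feedback genes in a common direction. The transcript of Dusp6, a cytoplasmic phosphatase that prefers ERK, was 4.69-fold lower in treated cells, and Etv5 was 4.16-fold lower. Spry1, Etv4 and Dusp5 were lower by 1.88-fold, 1.65-fold and 1.54-fold. Dusp1, Dusp4 and Spred1 were 1.62-fold, 1.39-fold and 1.24-fold higher, and Spry2 and Spry4 did not pass the test.

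Promoter sequence is shown for the members that moved most or that hold the less common of the motifs searched, with Dusp8, a relative of the members that was added after its values were seen. Etv5 had 2 annotated starts, and the window of the upstream one is printed. The sequences are from RefSeq on GRCm38.p6, a build other than that of the counts, and cover the 250 bases before the annotated start, written 5′ to 3′ in the direction of transcription. Capitals mark a cAMP response element (TGACGTCA) in Dusp1 and Dusp8, a pair of CArG boxes, the element bound by serum response factor, in Dusp5, and CCAAT boxes on either strand in Dusp6, Etv5 and Dusp8.

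Dusp6 (chr10:99262981-99263230, plus strand): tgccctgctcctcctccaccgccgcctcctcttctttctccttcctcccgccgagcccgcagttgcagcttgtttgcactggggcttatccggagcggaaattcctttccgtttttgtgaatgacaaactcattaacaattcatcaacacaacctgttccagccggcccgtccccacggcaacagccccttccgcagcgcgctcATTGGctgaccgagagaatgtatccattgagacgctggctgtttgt

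Etv5 (chr16:22439571-22439820, minus strand): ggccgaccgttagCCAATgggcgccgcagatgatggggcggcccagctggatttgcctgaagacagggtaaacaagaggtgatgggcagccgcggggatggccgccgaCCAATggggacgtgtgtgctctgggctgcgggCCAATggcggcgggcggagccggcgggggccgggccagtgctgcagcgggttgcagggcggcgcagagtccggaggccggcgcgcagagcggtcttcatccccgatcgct

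Dusp5 (chr19:53528895-53529144, plus strand): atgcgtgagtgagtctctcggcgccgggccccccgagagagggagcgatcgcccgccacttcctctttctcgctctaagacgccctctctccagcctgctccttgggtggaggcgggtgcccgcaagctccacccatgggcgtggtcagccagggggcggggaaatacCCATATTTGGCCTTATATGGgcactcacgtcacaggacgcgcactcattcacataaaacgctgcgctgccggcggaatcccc

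Dusp1 (chr17:26508473-26508722, minus strand): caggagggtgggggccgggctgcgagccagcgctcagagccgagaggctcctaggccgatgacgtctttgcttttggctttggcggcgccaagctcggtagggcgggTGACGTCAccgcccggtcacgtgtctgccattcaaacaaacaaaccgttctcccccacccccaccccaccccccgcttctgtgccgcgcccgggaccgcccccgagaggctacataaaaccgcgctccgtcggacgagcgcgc

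Dusp8 (chr7:142095285-142095534, minus strand): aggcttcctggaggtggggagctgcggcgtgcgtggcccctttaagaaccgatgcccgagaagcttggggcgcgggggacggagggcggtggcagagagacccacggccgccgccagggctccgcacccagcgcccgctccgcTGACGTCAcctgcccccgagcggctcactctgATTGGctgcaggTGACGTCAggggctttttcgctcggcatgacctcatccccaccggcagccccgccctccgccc

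Of the members, 7 were searched. No promoter entry was found for Dusp4 and Etv4, and Spry4 was left out of the search. Motifs were searched on both strands of the 250 bases before and the 50 bases after the start, of which the first are printed, and the share of all 32851 promoters of that length that hold each motif is the background. The cAMP response element was present in 1.79% of promoters and in Dusp1 alone of the 7 members, where it began at position -143, counted back from the annotated start. Dusp8 held 2 copies, beginning at -107 and -63. CArG boxes were present in 1.63% of promoters, and the 2 adjoining boxes of Dusp5 began at -82 and -72. The CCAAT box was common, in 37.4% of promoters and in 3 of the 7 members. It lay at -46 in Dusp6 and at -244 in Spry1, and the printed window of Etv5 held 3 copies, at -237, -142 and -110. Of the relatives, Dusp7, Dusp8, Dusp10, Dusp16 and Spred2 held it too. None of the 7 members held the AP-1 site TGANTCA (7.81% of promoters), the ETS site CCGGAAG (8.86%), the CCAAT/enhancer-binding protein and ATF response element TGATGNAAN (3.95%) or the TATA box TATAAA (13.6%). The GC box GGGCGG, which is not marked above, was in 5 of the 7 members and in 35.7% of promoters. These matches are letters in a window and say nothing of binding.

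Totals of counts on genes ranged from 31327094 to 37395732 per library, and the 10 members had raw counts from 186 to 4830. Counts were scaled by trimmed mean of M-values (TMM), and the word level below stands for a normalised count on that scale unless stated otherwise. The biological coefficient of variation over all genes was 0.0648. Of the 12288 genes, 39.9% passed as higher and 39.4% as lower in edgeR's quasi-likelihood test at an adjusted p under 0.05. The epithelial identity of the line was visible in all 7 epithelial markers fixed for the check, which were all lower after treatment, with summed levels of 116024 to 121884 in DMSO and 60789 to 63520 in P3FI-90. Of the leukocyte markers Cd8a and Adgre1 were at 0 in every library, and the summed level of the list was 368 to 434 in DMSO and 279 to 405 in P3FI-90, nearly all from Cd68. The 4 endothelial markers summed to at most 13.3 in DMSO and to 21.6 to 33.7 in P3FI-90. The 5 fibroblast markers summed to 1411 to 1441 and to 1001 to 1096, mostly from Pdgfra, which carcinoma lines can express, while Thy1 was at 0. Their part in the results below was not tested. In bulk RNA, fewer cells with a transcript and less transcript per cell cannot be told apart. Kdm3b, the gene of the inhibited enzyme, had levels of 2851 ± 67.4 in DMSO and 3109 ± 55.7 in P3FI-90 (SD, n = 3), with 0.13 for the log2 fold change (adjusted p = 0.0169, edgeR), and an inhibitor of the protein need not change its transcript.

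Of the 10 members, 3 passed as higher and 5 as lower, and 8 had groups that did not overlap. Over all genes tested, 79.3% passed in either direction and the groups of 81.2% did not overlap, so these counts were near the background and are not a result about the members. The median log2 fold change of the members was -0.34, beside 0.01 over all genes tested. The sizes of 2 members stood further out. Dusp6 ranked 136 and Etv5 ranked 181 from the lowest of the 12288 log2 fold changes, and 10.6% of genes were called lower with a log2 fold change under -1 (23.3% in either direction). No member was called higher with a log2 fold change over 1, as 12.7% of genes were.

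**Figure D1:**
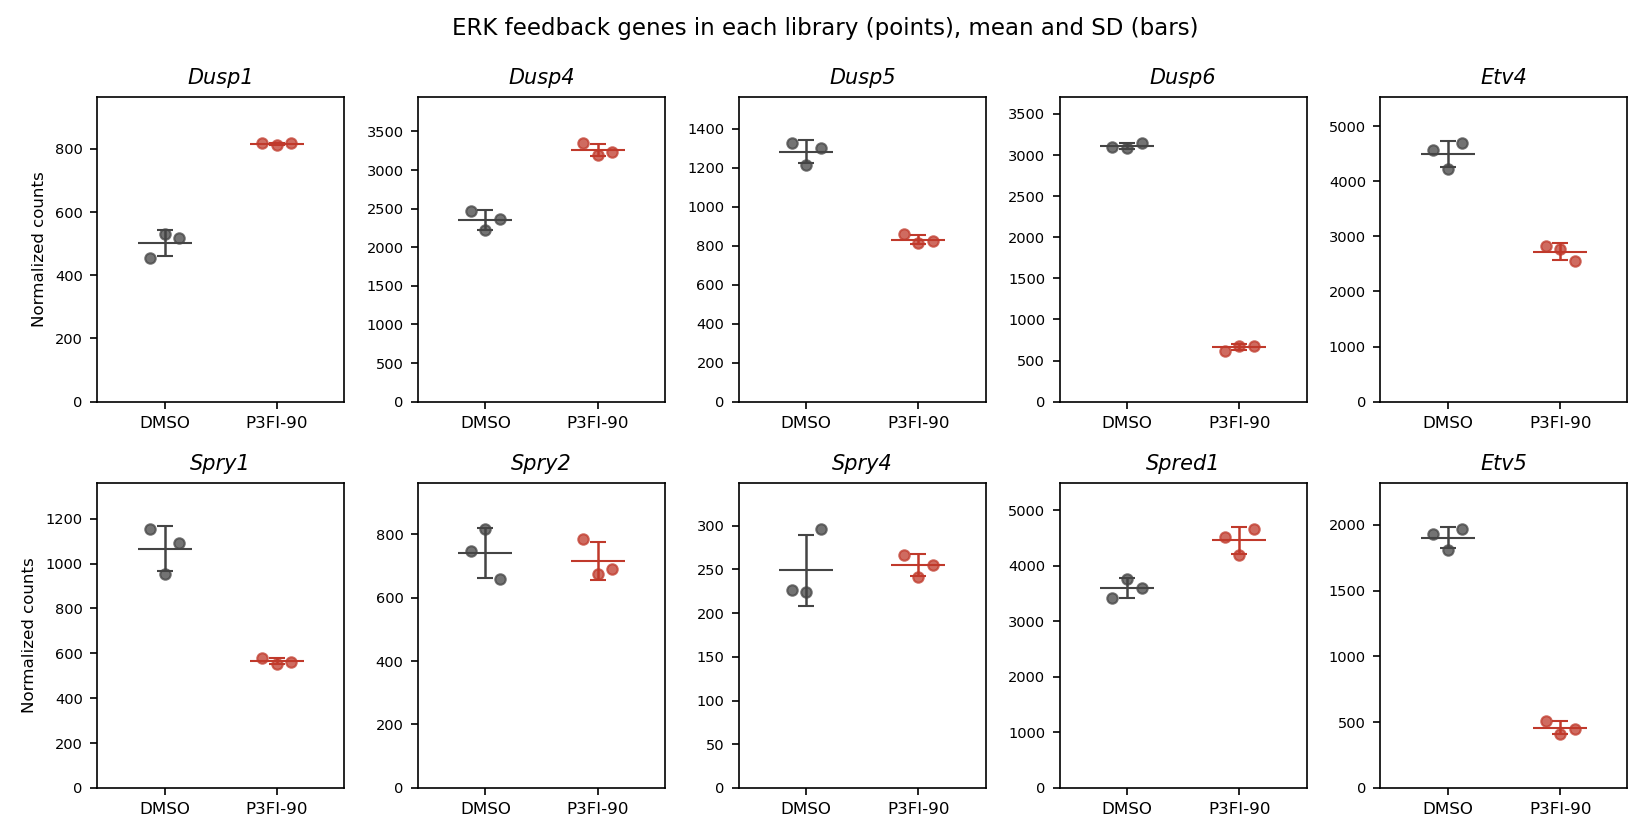
Normalised counts of the 10 ERK feedback genes in each of the 6 libraries, 1 panel per gene with its own linear axis from 0. Points are libraries, and bars give the mean and SD of 3 libraries; the groups are apart in 8 panels and overlap in those of Spry2 and Spry4.

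Of the 4 MAP kinase phosphatases, 2 passed as higher and 2 as lower, beside 39.9% and 39.4% of all genes tested. Dusp6 (ENSMUSG00000019960) had levels of 3103, 3083 and 3146 in the DMSO libraries and of 622, 683 and 683 in the P3FI-90 libraries. Every treated library lay far below every control, and the closest pair of libraries across the groups still differed by 4.51-fold. This was a log2 fold change of -2.23 (SE 0.0546, 95% confidence interval -2.35 to -2.11, adjusted p = 1.71e-13, edgeR's quasi-likelihood test). Dusp5 (ENSMUSG00000034765) encodes a nuclear phosphatase that acts on ERK and not on JNK or p38. Its levels were 1327, 1214 and 1303 in DMSO and 859, 814 and 823 in P3FI-90. The groups did not overlap, and the log2 fold change was -0.62 (SE 0.0634, interval -0.76 to -0.49, adjusted p = 5.04e-07, edgeR). Both members that are selective for ERK had lower transcript levels, Dusp6 with the larger difference. This did not hold for all phosphatases that prefer ERK, since of the relatives below Dusp9 was lower and Dusp7 higher.

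Dusp1 and Dusp4, the members with a broader range of substrates, passed as higher, as did 39.9% of all genes tested. A link between substrate range and direction was not tested. Dusp1 (ENSMUSG00000024190), an immediate early gene whose nuclear product acts on p38, JNK and ERK, had levels of 456, 532 and 519 in DMSO and of 819, 812 and 818 in P3FI-90. The treated libraries lay within a narrow range above all controls. Their log2 fold change over DMSO was 0.70 (SE 0.0818, interval 0.52 to 0.88, adjusted p = 2.19e-06, edgeR). Dusp4 (ENSMUSG00000031530), a nuclear phosphatase of ERK and JNK, had levels of 2469, 2219.6 and 2369 in DMSO and of 3349.8, 3201 and 3239.6 in P3FI-90. These groups were also apart, with a log2 fold change of 0.47 (SE 0.04999, interval 0.36 to 0.58, adjusted p = 7.89e-07, edgeR). Counts of Dusp5 carry a limit that the other 3 do not share to that extent, since 22.1% of its exon bases overlap a gene annotated on the opposite strand, and the strand setting of the counting is not given in the sources used here, so that reads of the pair cannot be told apart. For Dusp1 that overlap was 11 bases, and Dusp4 and Dusp6 had none.

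The make-up of the 4 phosphatase transcripts changed more than their sum. Divided by exon length, the summed level was 2522 ± 65.8 normalised counts per kilobase in DMSO and 1986 ± 28.0 in P3FI-90 (SD, n = 3). Dusp6 made up 38.6%, 40.2% and 39.3% of the sum in the DMSO libraries and 9.86%, 11.1% and 11.01% in the P3FI-90 libraries. Dusp4 took 34.0% ± 1.01 of the sum in DMSO and 59.98% ± 0.581 in P3FI-90. Its share thus passed that of Dusp6 as the leading phosphatase transcript among the 4. Dusp1 went from 6.03% ± 0.609 to 12.4% ± 0.131, and Dusp5 from 20.5% ± 0.428 to 16.9% ± 0.253. The groups did not overlap in the sum or in any of the 4 shares, and an exact two-sided permutation test gave p = 0.1 for each, the smallest p that 3 against 3 libraries allow. The sum and shares leave out the 6 other MAP kinase phosphatases, of which 4 passed as higher and 1 as lower. Among those, Dusp9 went from 860 per kilobase in DMSO to 250 in P3FI-90, and Dusp7 from 491 to 883.

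**Figure D2:**
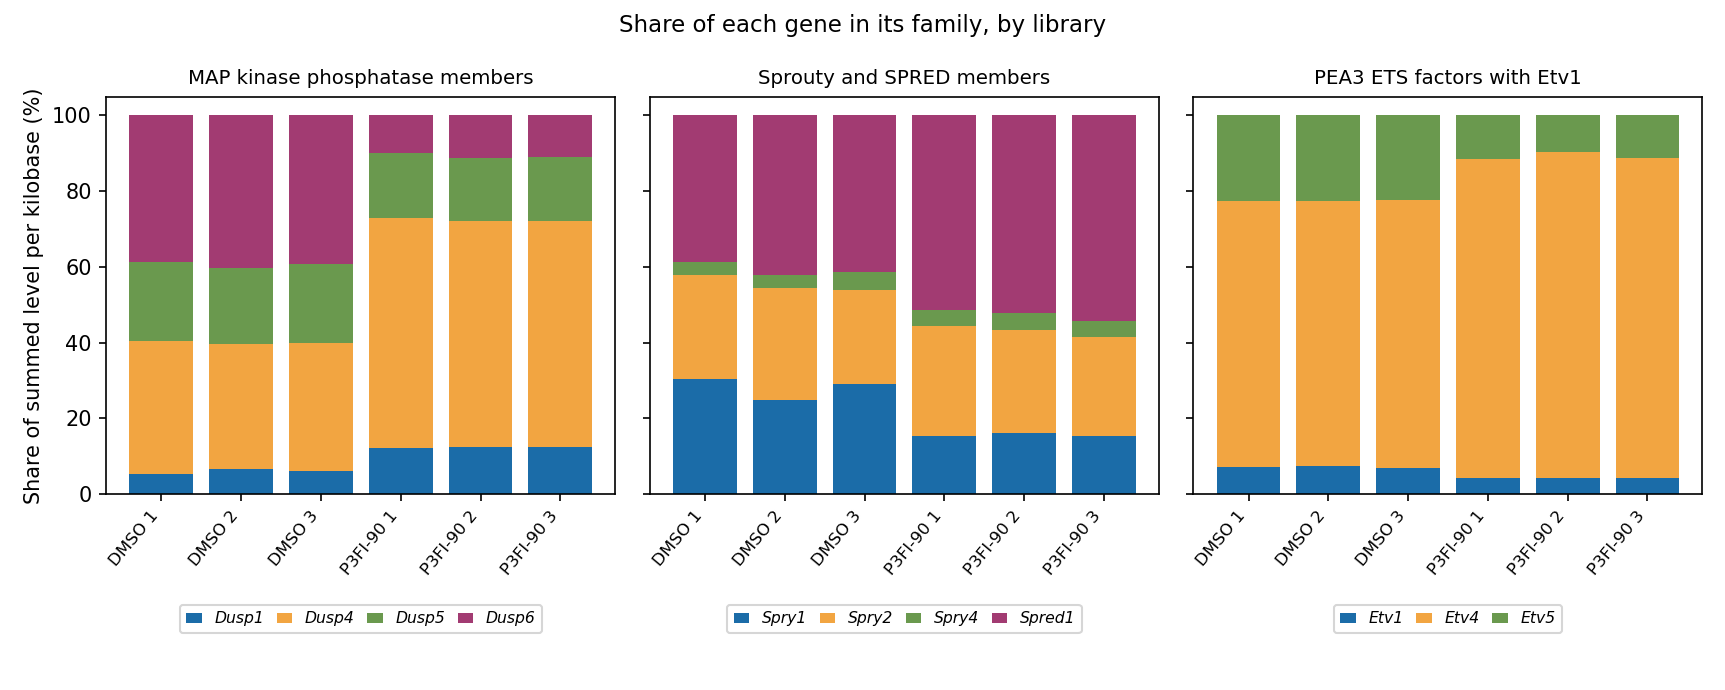
Stacked bars give the share of each gene in the summed level per kilobase of its family, in percent, for the 3 DMSO and 3 P3FI-90 libraries. The panels show the 4 phosphatases, the Sprouty and SPRED genes, and Etv4 and Etv5 with Etv1; Dusp6, Spry1 and Etv5 took smaller shares in every treated library.

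Of 6 other MAP kinase phosphatases, 4 passed as higher and 1 as lower, beside 39.9% and 39.4% of all genes tested, and 1 as neither, with a median log2 fold change of 0.70. Dusp7 and Dusp9 encode the other phosphatases of the cytoplasmic group to which Dusp6 belongs, and they moved apart. Dusp9 fell 3.44-fold, from 2342 ± 98.3 to 680.3 ± 26.9 (log2 fold change -1.78, SE 0.0577, adjusted p = 2.60e-12, edgeR), whereas Dusp7 rose from 1648 ± 84.5 to 2964 ± 70.5 (log2 fold change 0.85, SE 0.0526, adjusted p = 2.32e-09, edgeR). Within the group with the same preferred substrate, levels were thus lower for Dusp6 and Dusp9 and higher for Dusp7.

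Dusp8, Dusp10 and Dusp16 encode phosphatases that prefer JNK and p38. Dusp8, whose promoter sequence is printed above, had levels of 793, 666 and 784 in DMSO and of 3253, 3180.3 and 3264 in P3FI-90. Its groups were far apart, at 4.32-fold (log2 fold change 2.11, SE 0.0642, adjusted p = 1.41e-12, edgeR). Dusp16 rose 2.35-fold, from 1364 ± 59.7 to 3200.3 ± 93.7 (log2 fold change 1.23, SE 0.0522, adjusted p = 3.85e-11, edgeR). Dusp10 went from 687 ± 36.7 to 1009 ± 57.8 (log2 fold change 0.55, SE 0.0739, adjusted p = 8.71e-06, edgeR). For these 3 genes the treated and control libraries did not overlap, as for 81.2% of all genes tested. Dusp2, which encodes a nuclear phosphatase found mainly in immune cells, was low at 66.1 ± 16.9 and 69.1 ± 11.6, and its log2 fold change of 0.06 had an interval of -0.52 to 0.64 (adjusted p = 0.855, edgeR).

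**Figure D3:**
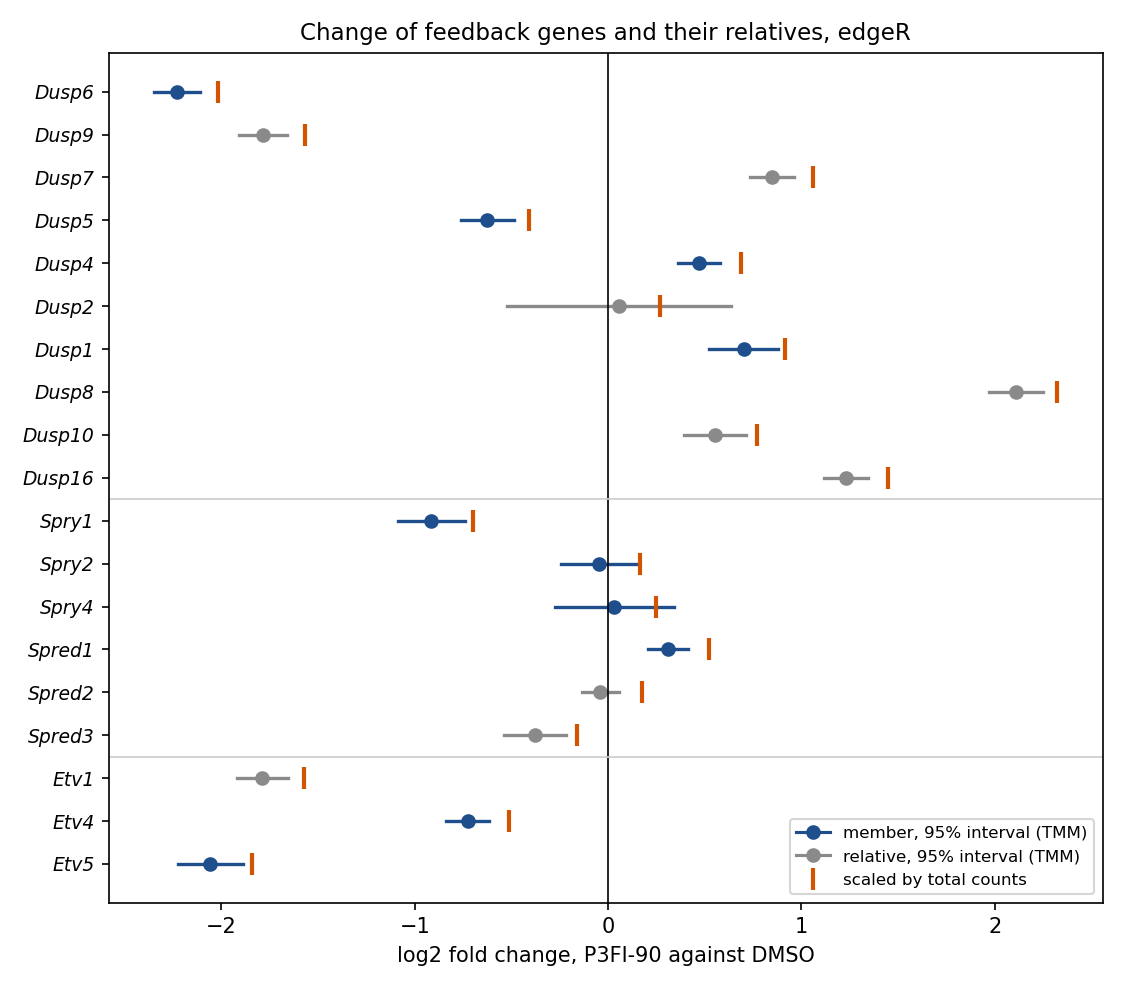
Log2 fold changes of the 10 feedback genes and of their relatives, P3FI-90 against DMSO, with points for the edgeR estimates and lines for the 95% confidence intervals. Orange ticks give the value when libraries were scaled by total counts instead; Dusp6 (-2.23) and Etv5 (-2.06) lie furthest to the left and Dusp8 (2.11) furthest to the right.

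Among the 4 Sprouty and SPRED members, 1 passed as lower, 1 as higher and 2 as neither, beside 39.4% lower and 39.9% higher of all genes tested. Spry1 (ENSMUSG00000037211), which encodes a membrane-associated inhibitor of receptor signalling to RAS, had levels of 1153, 955 and 1090.0 in DMSO and of 580.1, 554 and 563 in P3FI-90. The treated libraries were close to each other and all below the lowest control. In edgeR, Spry1 was lower by a log2 fold change of -0.92 (SE 0.0806, interval -1.09 to -0.74, adjusted p = 1.06e-07). Of its exon bases, 24.4% overlap a gene on the opposite strand, which limits Spry1 in the same way as Dusp5.

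Spred1 (ENSMUSG00000027351) encodes an adaptor that brings neurofibromin, an inactivator of RAS, to the plasma membrane. Its levels were 3421, 3771 and 3609 in DMSO and 4519, 4196 and 4657 in P3FI-90. All 3 treated libraries exceeded all 3 controls, but the closest pair differed by only 1.11-fold. The log2 fold change of 0.31 was the smallest among the members that passed the test (SE 0.0485, interval 0.20 to 0.41, adjusted p = 4.38e-05, edgeR). Nf1, the gene of neurofibromin and the largest change in the list of cascade genes, rose 3.76-fold, from 1158 ± 10.9 to 4351 ± 97.5 (log2 fold change 1.91, SE 0.0463, adjusted p = 1.60e-13, edgeR).

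The other Sprouty members were within the spread of the libraries. Spry2 (ENSMUSG00000022114), a widely expressed inhibitor of receptor signalling, had levels of 748, 815 and 659 in DMSO and of 785, 674 and 689.6 in P3FI-90. High and low libraries occurred in both groups, and the log2 fold change was -0.05 (SE 0.0924, interval -0.25 to 0.15, adjusted p = 0.650, edgeR). Spry4 (ENSMUSG00000024427) had the lowest counts of the members, with levels of 227, 224 and 296 in DMSO and of 267, 242 and 256 in P3FI-90. All treated libraries lay between the lowest and the highest control. The log2 fold change of Spry4 was 0.03 (SE 0.143, interval -0.28 to 0.34, adjusted p = 0.845, edgeR). These intervals hold for TMM scaling only, and under total counts Spry2 was at 0.17, above its interval. The sign of both values depended on the scaling and on which libraries were used. The interval of Spry1 lay below those of Spry2 and Spry4, although the difference between the genes was not itself tested.

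Per kilobase, the sum of the 4 Sprouty and SPRED transcripts was 1305 ± 18.6 in DMSO and 1249 ± 59.1 in P3FI-90, and the groups overlapped (exact two-sided permutation test, p = 0.2, n = 3 per group). Without division by length the sums were 5656 ± 108 and 5994 ± 284, so the direction turned (exact p = 0.2). Within that sum the share of Spry1 went from 28.1% ± 2.89 to 15.6% ± 0.437 and that of Spred1 from 40.7% ± 1.83 to 52.6% ± 1.51, without overlap (exact p = 0.1 for each, the smallest possible). The shares of Spry2, at 27.2% ± 2.49 and 27.5% ± 1.43, overlapped (exact p = 1), and so did those of Spry4, at 4.02% ± 0.716 and 4.29% ± 0.0349 (exact p = 0.4). Of the relatives, Spred2 had levels of 3255 ± 90.8 and 3166 ± 87.1, with an interval of -0.13 to 0.05 for its log2 fold change of -0.04 (adjusted p = 0.413, edgeR), although scaling by total counts gave 0.17 and a call as higher. Spred3, another member of the SPRED family, fell from 972 ± 61.5 to 749 ± 41.4 (log2 fold change -0.38, SE 0.0745, adjusted p = 0.000352, edgeR), a call that total counts did not keep.

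Both PEA3 factors among the members passed as lower, beside 39.4% of all genes tested. Their groups did not overlap, which held for 81.2% of all genes tested. Etv5 (ENSMUSG00000013089) had levels of 1928, 1811 and 1967 in DMSO and of 512, 413 and 448 in P3FI-90. The lowest control was 3.54-fold above the highest treated library. For Etv5 the log2 fold change was -2.06 (SE 0.0781, interval -2.22 to -1.89, adjusted p = 1.23e-11, edgeR). Etv4 (ENSMUSG00000017724), a factor linked to cell movement and invasion, had levels of 4567, 4229.7 and 4695 in DMSO and of 2834, 2778 and 2545 in P3FI-90. The groups were again apart, with a log2 fold change of -0.73 (SE 0.0522, interval -0.84 to -0.61, adjusted p = 1.14e-08, edgeR), and the interval lay above that of Etv5. Etv1, the third gene of the PEA3 group and not a member, fell 3.46-fold, from 1975 ± 22.6 to 571 ± 30.2 (log2 fold change -1.79, SE 0.0605, adjusted p = 3.79e-12, edgeR). Of the 50-base windows of Etv5 transcripts, 24.5% also occur in transcripts of other genes, mainly Gm4798, and for Etv1 9.08% do, mainly in Gm5454, neither of which is among the rows used here, so that reads from these stretches cannot be told apart. Etv4, like Dusp1, Dusp4, Dusp6, Spry2, Spry4 and Spred1, shared no such window with another gene.

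The summed level of the 3 PEA3 transcripts was 2061 ± 98.7 per kilobase in DMSO and 1031 ± 57.1 in P3FI-90. Etv4 made up 70.3% ± 0.397 of it in DMSO and 85.0% ± 0.943 in P3FI-90, although its own level fell. The share of Etv5 went from 22.5% ± 0.125 to 10.8% ± 0.9997 and that of Etv1 from 7.22% ± 0.272 to 4.17% ± 0.0596. None of these groups overlapped (exact two-sided permutation p = 0.1 for the sum and for each share, the smallest possible).

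Set against each other per kilobase of exon, the members were ordered differently in the 2 groups. In DMSO the mean levels per kilobase were 1449 for Etv4, 993 for Dusp6, 859 for Dusp4, 531 for Spred1, 518 for Dusp5, 464 for Etv5, 367 for Spry1, 355 for Spry2, 152 for Dusp1 and 52.3 for Spry4. Of the neighbours in this order, Spred1 and Dusp5 overlapped in their libraries, and so did Spry1 and Spry2. In P3FI-90 the order was Dusp4 at 1191, Etv4 at 876, Spred1 at 657, Spry2 at 343, Dusp5 at 336, Dusp1 at 247, Dusp6 at 212, Spry1 at 195, Etv5 at 111 and Spry4 at 53.6. Here Spry2 and Dusp5 overlapped, as did Dusp6 and Spry1. Dusp6 moved from the second place to the seventh and Etv5 from the sixth to the ninth, while Spry4 was last in both groups. Exon lengths were those of an annotation on another build, and they set the order between genes but not the change of any gene.

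The genes of the cascade that the feedback acts on were read as a list of 22 genes, from adaptors and RAS regulators to ERK, with the ERK substrates Rps6ka1, Rps6ka3 and Elk1. Of these, 11 passed as higher, 7 as lower and 4 as neither, beside 39.9% higher and 39.4% lower of all genes tested. Their median log2 fold change was 0.11, and scaling by total counts gave 16 higher and 5 lower. The groups of 19 of the 22 did not overlap, which was near the background of 81.2%. Beside Nf1, the largest changes were in Braf, which encodes a RAF kinase, and Mapk3, which encodes ERK1. Braf rose 2.77-fold, from 669 ± 19.9 to 1853 ± 65.3 (log2 fold change 1.47, SE 0.0592, adjusted p = 2.25e-11, edgeR). Mapk3 fell 2.08-fold, from 4477 ± 110 to 2152 ± 72.9 (log2 fold change -1.06, SE 0.0444, adjusted p = 3.53e-11, edgeR).

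Of 12 other genes that are induced through ERK in many cell types, 9 passed as lower, beside 39.4% of all genes tested, 1 as higher and 2 as neither. Their median log2 fold change was -0.54, and 4 fell by more than 1 on the log2 scale. The count of higher genes was 0 under upper quartiles or without DMSO replicate 2, and 2 under total counts or without DMSO replicate 3. Egr1, an immediate early zinc finger factor, fell 3.72-fold, from 771 ± 39.0 to 207 ± 15.4 (log2 fold change -1.89, SE 0.0989, adjusted p = 3.52e-10, edgeR). Ier3, another immediate early gene, fell 3.42-fold, from 11929.9 ± 157 to 3484 ± 117 (log2 fold change -1.78, SE 0.0363, adjusted p = 3.47e-14, edgeR). Ccnd1, which encodes the G1 cyclin D1, fell 3.39-fold, from 40236 ± 2198 to 11859 ± 501 (log2 fold change -1.76, SE 0.0421, adjusted p = 1.41e-13, edgeR). These 3 genes were named because their changes were the largest called in the list, so their size does not stand for the list. The 3 changes were close in size to those of Etv5 and Etv1 and larger than those of Spry1, Etv4 and Dusp5.

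JNK and p38 kinases, the further substrates of the broader phosphatases, were read in a list with the kinases Map2k3, Map2k4, Map2k6 and Map2k7 that activate them. Of these 11 genes, 10 could be tested, with a median log2 fold change of -0.07. Of the 10, 3 passed as higher, 3 as lower and 4 as neither, beside 39.9% higher and 39.4% lower of all genes tested. Scaled by total counts, 7 were higher and 2 lower, and by upper quartiles 3 were higher and 5 lower. Mapk12 and Mapk13, which encode p38 kinases, fell from 1563 ± 78.9 to 1004 ± 45.9 and from 3163 ± 125 to 2345 ± 14.7 (log2 fold changes -0.64 and -0.43, adjusted p = 2.96e-07 and 9.45e-07, edgeR). Mapk10, which encodes a JNK kinase found mainly in neurons, had only 7.49 ± 1.51 and 25.5 ± 5.24 normalised counts (log2 fold change 1.75, SE 0.478, adjusted p = 0.00398, edgeR). Its difference was 0.51 with limma on log2(CPM + 1), and it was not among the genes with at least 10 counts in every library.

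**Figure D4:**
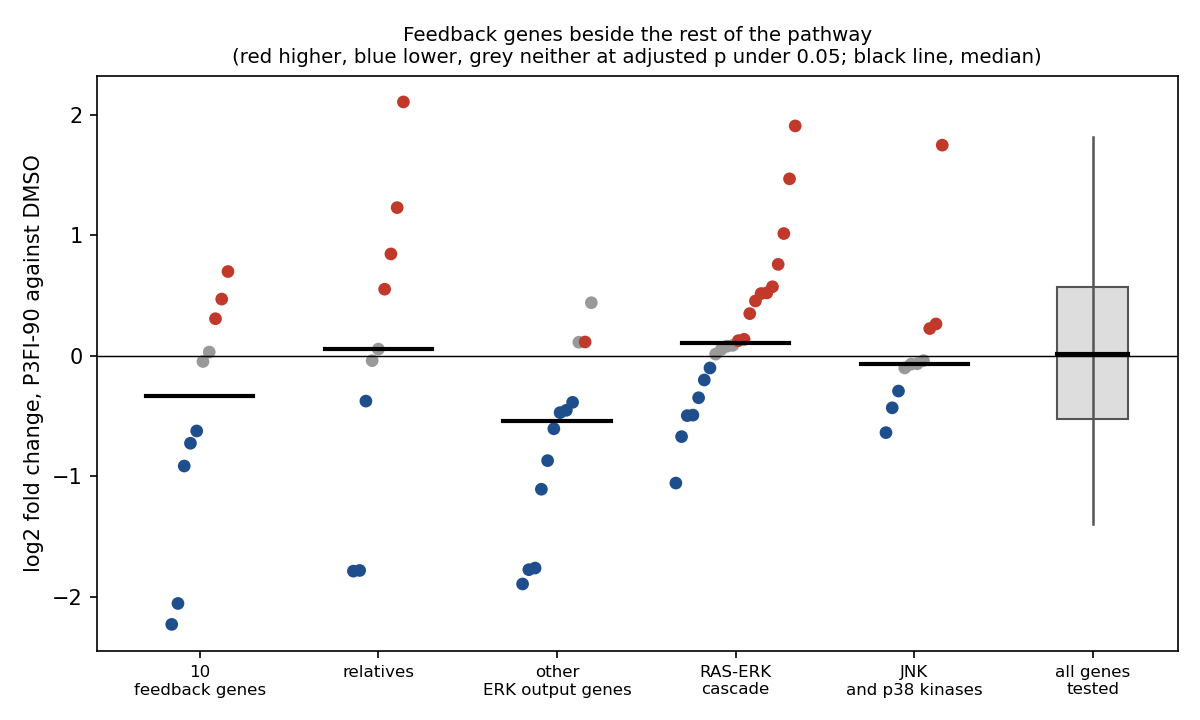
Log2 fold changes of the 10 feedback genes, their relatives, other genes induced through ERK, the RAS-ERK cascade and the JNK and p38 kinases with the kinases that activate them, P3FI-90 against DMSO, with 1 point per gene coloured by its call and a black line at each median. The box at the right gives the quartiles of all 12288 genes (-0.52 and 0.57) and its line the 5th and 95th percentiles (-1.39 and 1.82); Dusp6 and Etv5 lie below the 5th percentile.

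The directions of the 8 members that passed the test were the same under each of the 4 scalings run. Scaling by total counts in place of TMM moved the median of all genes from 0.01 to 0.23 on the log2 scale and the calls over all genes from 4908 higher and 4841 lower to 6179 and 3641, and the members in that fit comprised 3 higher and 5 lower. Under it Dusp6 was at -2.02, Etv5 at -1.84 and Spred1 at 0.52. The log2 fold change of Spry2 became 0.17 and that of Spry4 0.25 in that fit, neither of which passed the test.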

How the data were processed

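RNA from 3 DMSO and 3 P3FI-90 (10 µM, 24 h) libraries of 4T1 cells was sequenced by the authors, who deposited 1 table of raw read counts per gene. The submitters' processing notes name CASAVA, HISAT2, StringTie and the build GRCm39. The counting tool, annotation and strandedness are not given in the sources used here. In every library more rows had a count of 2 than of 1, so both reads of a pair may have been counted, and no counting interval is given. From 22401 rows, 285 assembled and 11 annotated transcripts without a gene identifier were left out. Named rows at 0 in every library numbered 6452. Groups came from the sample labels.

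Counts were filtered with filterByExpr, scaled by TMM and tested with edgeR 4.0.16 in R 4.3.3 (quasi-likelihood test, P3FI-90 against DMSO, Benjamini-Hochberg adjustment across 12288 genes, called at 0.05). The study used limma, which served as an alternative (3.58.1), as did DESeq2 1.42.0. Standard errors and 95% intervals follow from the F statistic and its degrees of freedom. Normalised counts are counts divided by the TMM-adjusted library size relative to its mean. The procedure was run on simulated counts of 12164 genes, of which 200 were changed. It found 157 of the 200, with 11 false among 168 calls, but only 21 of 48 genes changed by 1.25-fold. Shares within families were compared by exact permutation of libraries. Exon lengths and shared windows came from GENCODE M21 (GRCm38) and promoters from RefSeq (GRCm38.p6), matched by identifier or symbol, with 21995 identifiers found in GENCODE, and no position was carried between builds. The members and lists were chosen with earlier results of these data known. Named were all members, their relatives, Kdm3b and, of each other list except markers, the called genes with the 3 largest absolute log2 fold changes at a mean of at least 10 normalised counts in a group.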

Additional observations from a re-analysis of the deposited data

How the results depend on the processing

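The members comprised 3 higher and 5 lower in all 16 alternatives (other scalings, filters, tools, the replicate block, halved counts and 6 fits without a library), and 154 of their 160 values kept sign and call. Over those alternatives the log2 fold change ranged from -2.27 to -2.02 for Dusp6, -2.15 to -1.84 for Etv5, -0.77 to -0.51 for Etv4, -0.99 to -0.70 for Spry1, -0.67 to -0.41 for Dusp5, 0.63 to 0.91 for Dusp1, 0.43 to 0.69 for Dusp4 and 0.27 to 0.52 for Spred1. Signs turned for Spry2, Spry4, Spred2 and Dusp2, whose values lay between -0.05 and 0.06. Under total counts Spry2 was 0.17 and Spred2 0.17 (adjusted p = 0.00219, edgeR), and under upper quartiles Spry4 was -0.0066. Leaving out 1 library in turn gave -0.13 to 0.0206 for Spry2 (positive without DMSO replicate 2), -0.042 to 0.17 for Spry4 (negative without DMSO replicate 1 or 2 or P3FI-90 replicate 1) and -0.14 to 0.20 for Dusp2 (negative without DMSO replicate 2 or P3FI-90 replicate 3). Calls were lost for Spred3 under total counts (adjusted p = 0.0587, edgeR) and for Kdm3b under upper quartiles (0.0801) and without DMSO replicate 1, P3FI-90 replicate 2 or P3FI-90 replicate 3 (0.0627, 0.0588 and 0.0518). Total counts gave 7 higher and 2 lower genes of the JNK and p38 list. The cause was not tested. Leaving out 1 library gave 4753 to 4907 higher and 4692 to 4801 lower genes. With the replicate number as a block the calls were 4802 higher and 4722 lower, Dusp6 was at -2.23, and no call among the named genes changed. Same-numbered libraries of the 2 groups did not deviate together (correlations -0.015, 0.0168 and 0.0102), and 3 of 6 libraries correlated best with their own number. Shares taken without division by length changed by -31.0 percentage points for Dusp6, 7.70 for Dusp1, -2.75 for Dusp5, -9.43 for Spry1, -8.35 for Etv1, 18.9 for Etv4 and -10.5 for Etv5, in the same directions as the shares per length, while the overlapping shares of Spry2 and Spry4 turned from 0.29 and 0.27 to -1.14 and -0.15.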
